A study of Coturnix japonica with 19 samples.

Results

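Proteasome genes were followed in the pituitary glands of 19 Japanese quail (Coturnix japonica). The set was every gene symbol made of PSM, a letter from A to G and a number, with the counts of its transcripts summed. It held 39 of the 19562 gene symbols counted. Of these, 13 encode subunits of the core particle and 15 encode subunits of the regulatory particle. A further 10 encode assembly chaperones, activators or an inhibitor. PSMC3IP met the rule by its name only, since its product is named after a partner protein and is no subunit, and it was left out of all summed levels and shares.

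The birds formed 4 groups by age and by hours of light a day, 16 (16L) or 8 (8L). There were 4 juvenile 16L, 5 juvenile 8L, 5 adult 16L and 5 adult 8L birds, with 1 library a bird and no transgene or drug. Juveniles hatched from incubated eggs, spent 5 days under a long photoperiod and then 5 days under 16L or 8L, and were taken on posthatch day 10. Adults were males that first had a long photoperiod and then 56 days of short days. The adult 8L birds were taken at that point and the adult 16L birds after another 56 days of long days, so photoperiod cannot be told apart from later collection in adults. No strain was given in the sources used here.

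The proteasome is the main protease of the cytosol and nucleus. Its core particle is a barrel with alpha rings (PSMA genes) at its ends and beta rings (PSMB genes) between them, and its catalytic sites sit inside on the subunits encoded by PSMB5, PSMB6 and PSMB7. The regulatory particle caps the barrel. Its ATPases (PSMC genes) unfold a substrate and thread it in, while its other subunits (PSMD genes) bind the ubiquitin tag, remove it and hold the cap together. Endocrine cells, like all other cells, use the proteasome to degrade regulators and misfolded secretory proteins. PSMB6, PSMC4, PSMD8, PSME1, PSME2 and the immune and tissue-specific core subunits had no symbol among the 39, so they were not analysed here.

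Depth differed widely between libraries and limited the precision of values in the shallow ones. Library totals were 91029 to 542627 counts in juvenile 16L birds, 90599 to 1074137 in juvenile 8L, 970136 to 4796665 in adult 16L and 128507 to 1969092 in adult 8L. Levels are given as CPM, counts per 1000000 of the library total after TMM scaling, and 1 count stood for 0.2401 to 8.61 CPM. The hormone genes POMC, PRL, GH and CGA were counted in every library, while FSHB was at 0 in some juveniles and TSHB in some juvenile and adult 8L birds. The 12 pituitary markers summed to only 2817 CPM in juvenile 8L replicate 1 and 8359 CPM in replicate 5, against 29702 to 56918 CPM in the other juvenile 8L birds. The same libraries held 14060 and 13740 CPM of bone markers, and all adults held 34.0 to 56.3 CPM. Females were listed among the juveniles, 2 under 16L and 1 under 8L. The W-linked gene HINTW, which only female birds carry, had 0 counts in juvenile 16L replicate 2, listed as female, and 120 in replicate 3, listed as male. In bulk tissue, fewer cells of a type and less RNA per cell cannot be told apart.

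All 39 genes were counted in some bird, and 20 of them in every bird. Among the 28 subunits, 10 of the core particle and 5 of the regulatory particle (PSMC1, PSMC2, PSMC3, PSMC5 and PSMD1) were counted in every bird. The 5 libraries under 200000 counts held 29 to 34 of the genes and the other 14 held 35 to 39, so zeros were most frequent in shallow libraries. A count of 0 allows up to 3 counts, which was 25.8 CPM in the shallowest juvenile 16L library and 0.720 CPM in the deepest adult 16L library, for counting error only. The set, PSMC3IP included, took 88 to 5031 counts of a library. PSMB1 had the most counts over all birds (1391) and, leaving out PSMC3IP with 40, PSMG1 the fewest (86). Lengths of the counted transcripts were not at hand, so levels are compared between birds and not between genes.

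Several members were counted on more than 1 transcript, and some of those counts repeated each other. Of the 39 genes, 31 had 1 transcript. PSMA4, PSMB5, PSME4, PSMG4 and PSMC3IP each had a transcript whose counts equalled those of the most counted one in every library. For PSMB5 the sum was 1154 counts over all birds, against 278 on its most counted transcript. For PSME4 it was 1002 against 350. Repeated values of this kind also stood in 17.1% of all genes with several well counted transcripts. A summed level of these genes therefore counts some reads more than once, and each result that rests on one is also given on the most counted transcript where the call differs.

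The groups overlapped in the summed level of each particle. The 13 core genes summed to 514 ± 47.3 CPM in juvenile 16L (SD, n = 4), 479 ± 154 in juvenile 8L, 526 ± 154 in adult 16L and 484 ± 154 CPM in adult 8L birds (n = 5 each). The 15 regulatory genes summed to 233 ± 54.0 CPM in juvenile 16L, 290 ± 98.4 in juvenile 8L, 294 ± 49.6 in adult 16L and 250 ± 66.5 CPM in adult 8L birds. Single birds varied more than the means, and sums were mostly lower in shallow libraries. Without PSMC3IP, the set summed to 590 to 857 CPM (median 687) in the 5 libraries under 200000 counts. It summed to 765 to 1249 CPM (median 1021) in the other 14. The shallow libraries were juvenile 16L replicates 1 and 2, juvenile 8L replicates 3 and 4 and adult 8L replicate 2. Core sums ran from 285 CPM in adult 16L replicate 2 to 694 CPM in adult 8L replicate 5, and regulatory sums from 159 CPM in adult 8L replicate 2 to 437 CPM in juvenile 8L replicate 5. On the log2 scale the core sum differed by 0.12 between adult 16L and adult 8L birds and by 0.16 between juvenile 16L and juvenile 8L birds, both within the replicate SD of 0.49 and 0.34. The largest such difference of the regulatory sum was -0.35, juvenile 16L minus adult 16L, with a replicate SD of 0.29, and it was -0.05 with RLE size factors. On the most counted transcript of each gene, scaled on those counts, the core sum was 724 ± 145 CPM in juvenile 16L and 747 ± 198 in juvenile 8L birds. The order of the juvenile means was thus reversed. In adults it was 786 ± 222 CPM under 16L and 749 ± 248 under 8L.

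**Figure D1:**
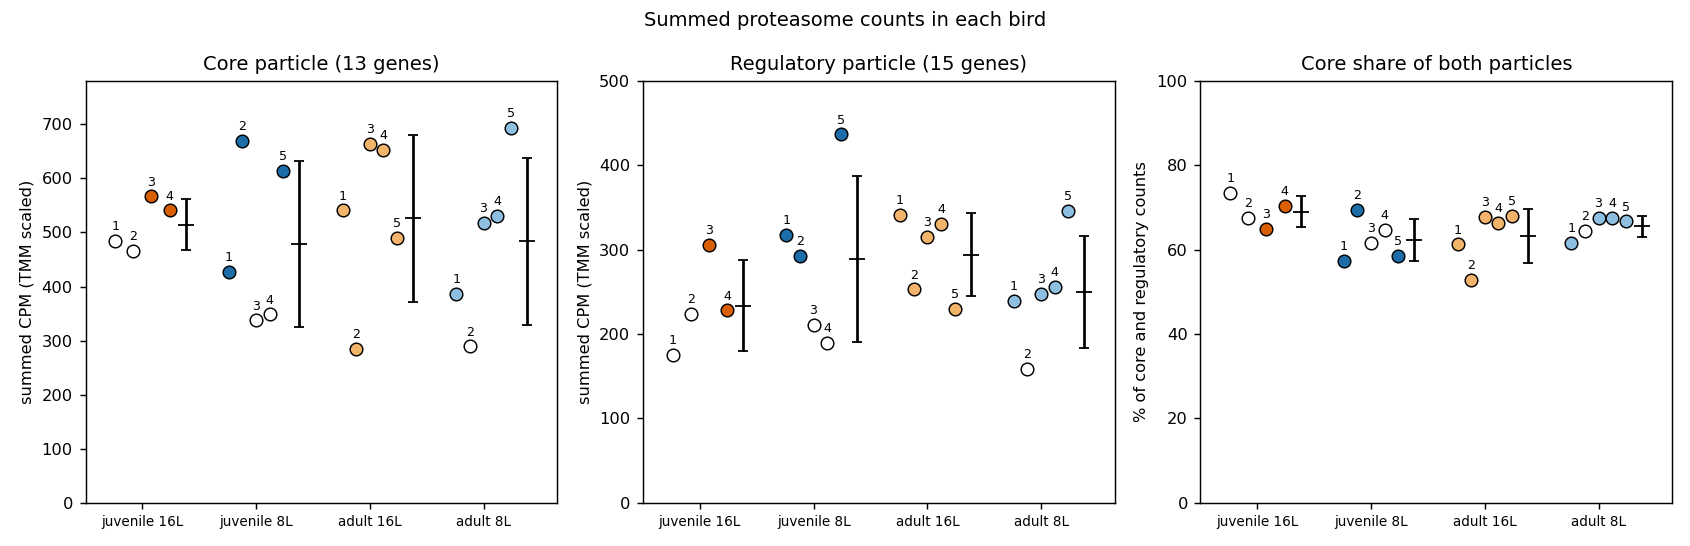
Summed levels of the 13 core genes and the 15 regulatory genes (TMM-scaled CPM), and the core share of the counts of both particles (%), in each bird by group. Points are birds with their replicate numbers, open where the library held under 200000 counts, and bars are mean and SD. The groups overlap in all 3 panels, and the core share stays between 52.9% and 73.4%.

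The balance of the particles also overlapped between the groups, with a core share of 52.9% to 73.4% in single birds. The core particle took 69.0 ± 3.66% of core and regulatory counts in juvenile 16L birds, 62.3 ± 4.96% in juvenile 8L, 63.3 ± 6.39% in adult 16L and 65.6 ± 2.51% in adult 8L birds. Over the pooled counts of a group it was 528 of 772 (68.4%, 95% Wilson interval 65.0 to 71.6) in juvenile 16L and 1230 of 1893 (65.0%, 62.8 to 67.1) in juvenile 8L birds. The pooled values were 4902 of 7454 (65.8%, 64.7 to 66.8) in adult 16L and 2680 of 4082 (65.7%, 64.2 to 67.1) in adult 8L birds. Deep libraries weigh most in pooled values. Juvenile 8L replicate 2 alone held 737 of the 1230 core counts of its group, and adult 16L replicate 3 held 2763 of 4902. All 4 intervals overlap. They cover counting error only, and are too narrow even for that, since repeated counts enter as separate reads. With the most counted transcript of each gene alone, the core share was 66.2% (62.6 to 69.7) in juvenile 16L and 64.4% (62.1 to 66.7) in juvenile 8L birds. It was 63.4% (62.2 to 64.6) in adult 16L and 63.8% (62.2 to 65.3) in adult 8L birds.

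No proteasome gene passed the threshold with photoperiod. In adults, 35 members were tested by edgeR's quasi-likelihood test and 0 had an adjusted p under 0.05, where 0.0267% of the 7478 genes tested did. At an unadjusted p under 0.05 there were also 0 members, against 3.18% of all genes. DESeq2 gave 0 and limma-voom 2 members at that unadjusted threshold, and neither called one after adjustment. The log2 fold changes ran from -0.35 to 0.78, 18 above 0 and 17 below, with a median of 0.01 beside 0.02 over all genes. None was past 1 in size, as were 4.40% of all genes. The 95% interval lay within 1 log2 unit on both sides of 0 for 10 of the 35, so changes of up to 2-fold were bounded for 28.6% of the members and for 23.8% of all genes. Juvenile birds gave far fewer members. Only 7 passed the filter on low counts there, none of them a regulatory subunit. Of these, 0 were called and 0 had an unadjusted p under 0.05 (0% and 1.7% of the 2405 genes tested), and DESeq2 and limma-voom gave 0 as well. The interval lay within 1 log2 unit for 0 of the 7 and for 1.41% of all genes, so changes of up to 2-fold were not bounded for any member there. Over both ages, with age as a term, 34 members were tested and 0 called (0.014% of 7165 genes), and 1 member, PSMB5, had an unadjusted p under 0.05 with each of the 3 tools, where 3.18% of all genes did by edgeR.

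Age gave a like picture. In the comparison of juvenile 16L with adult 16L birds, 0 of 32 members were called and 1, PSMG2, had an unadjusted p under 0.05 (1.31% and 9.82% of 6641 genes). DESeq2 gave 1 member and limma-voom 0 at that unadjusted threshold. Between juvenile 8L and adult 8L birds, 0 of 25 were called and 1, PSMD7, had an unadjusted p under 0.05 (0.157% and 8.5% of 5106 genes), and DESeq2 and limma-voom gave 1 each. The interval lay within 1 log2 unit for 0 of the 32 under 16L (4.46% of all genes) and for 1 of the 25 under 8L (1.25%). Over both photoperiods, 0 of 34 were called by edgeR and by limma-voom, against 1.95% of 7165 genes by edgeR, and DESeq2 called 1, PSMD7, where it called 5.57% of all genes. PSMD7 and PSMG2 were the 2 members at an unadjusted p under 0.05 there, against 13.1% of all genes. Over the 7 comparisons 3.83% to 18.2% of all genes were at that unadjusted threshold by DESeq2 and 3.74% to 18.4% by limma-voom. The median log2 fold change of the members was 0.12, with 22 above 0 and 12 below, beside -0.16 over all genes. Only PSMD7 was past 1 in size (2.94% of the members), as were 16.4% of all genes, and the interval lay within 1 log2 unit for 13 of the 34 (38.2%, against 15.3% of all genes).

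**Figure D2:**
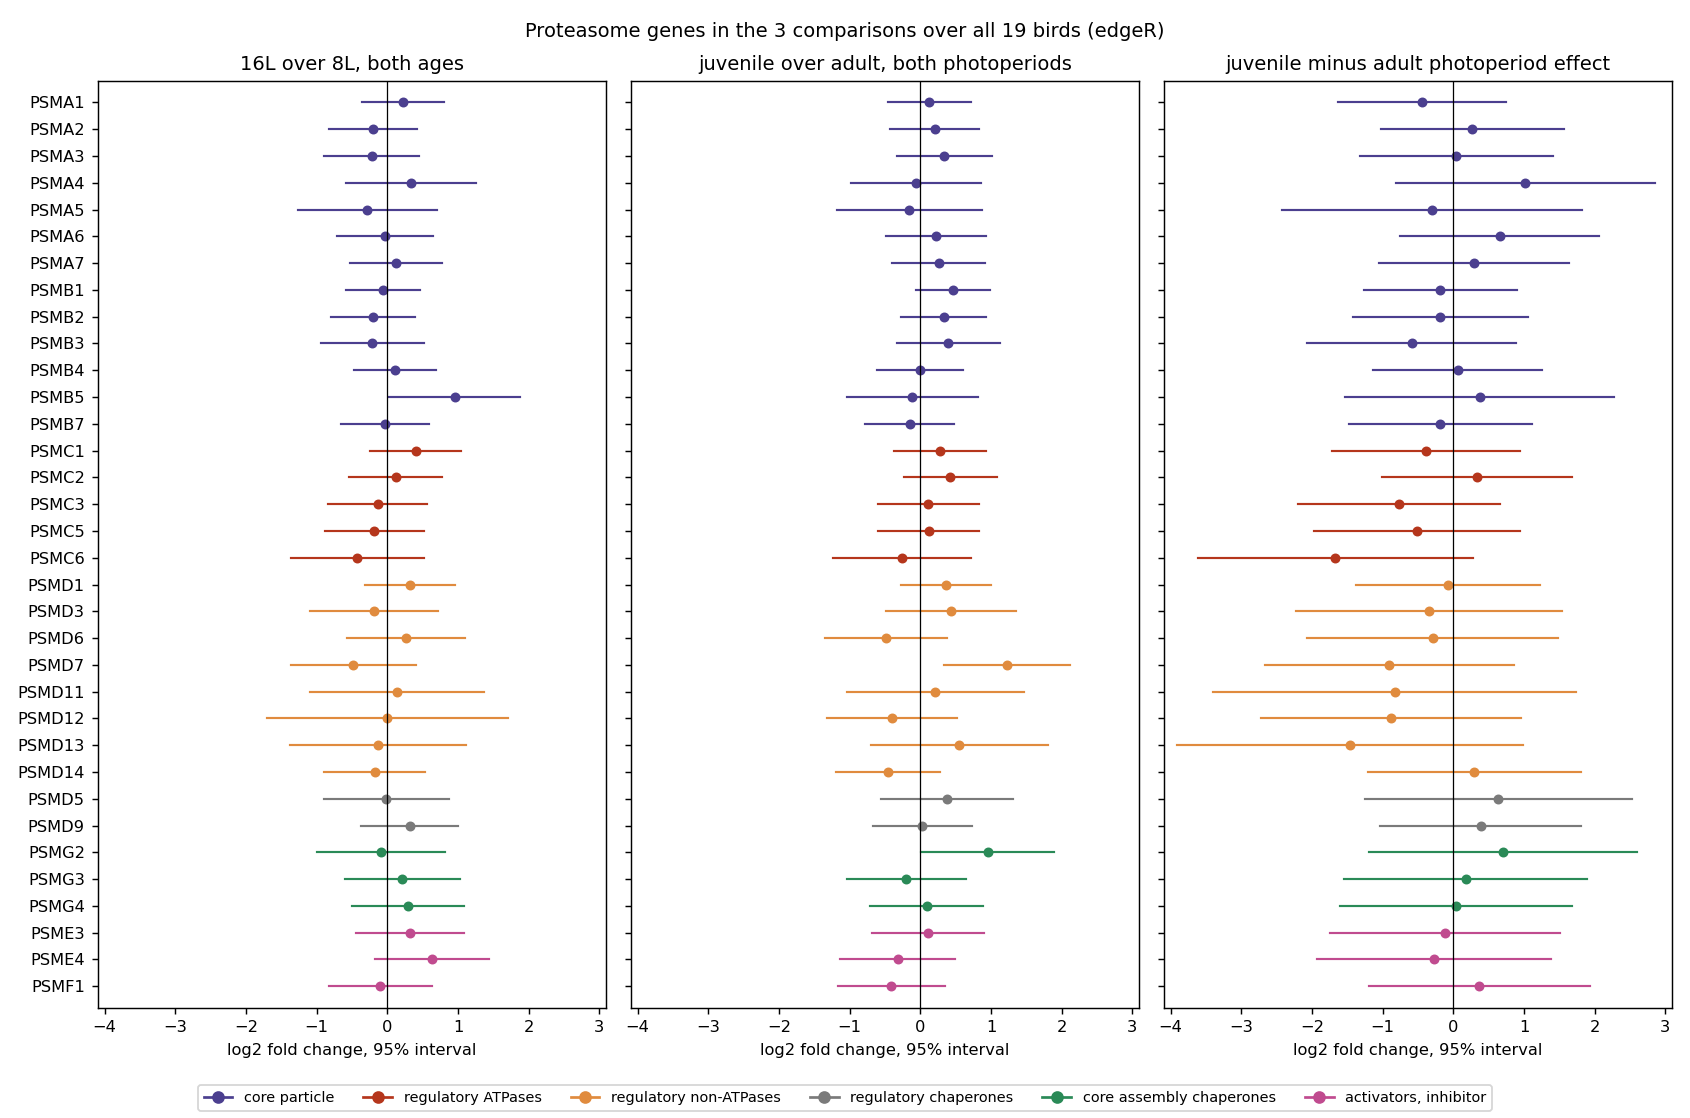
Log2 fold changes (x axis) of the 34 members tested in the 3 comparisons over all 19 birds, by edgeR, with 95% intervals, coloured by role and ordered by symbol within a role. Most points lie within 0.5 of 0, PSMB5 stands at 0.95 in the left panel and PSMD7 at 1.22 in the middle panel, and the right panel, the difference of the photoperiod effects of juveniles and adults, has the widest intervals.

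PSMB5, which carries the chymotrypsin-like site, had the largest photoperiod difference of the set. It had 74.4, 39.2, 99.4, 107 and 71.7 CPM in adult 16L birds, against 64.9, 45.4, 32.0, 9.95 and 64.1 CPM in adult 8L birds. The adult groups overlapped through adult 16L replicate 2 and 3 of the adult 8L birds. In juveniles it had 50.1, 86.1, 43.0 and 95.6 CPM under 16L, against 27.3, 79.9, 0, 30.3 and 20.3 CPM under 8L. Juvenile 8L replicate 2 was the only bird of its group within the 16L range. The juvenile values rest on few reads: 64 summed counts over the 16L group, 15 of them on the most counted transcript, and 108 over the 8L group, 27 on that transcript. PSMB5 gave a log2 fold change of 0.78 (SE 0.45, 95% interval -0.17 to 1.73, edgeR adjusted p = 0.999) in adults and 1.24 (SE 0.85, interval -0.65 to 3.12, edgeR adjusted p = 0.999) in juveniles, where it was 0.98 without juvenile 8L replicates 1 and 5. Over both ages it was 0.95 (SE 0.45, interval 0.03 to 1.88), with an edgeR adjusted p of 1.00. On its most counted transcript it was 0.72, with an edgeR adjusted p of 0.999. PSMB5 showed no age difference past its error, at a log2 fold change of -0.11 over both photoperiods.

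PSMB7, which carries the trypsin-like site, differed little between any groups. It had 12.5, 8.61, 21.5 and 29.4 CPM in juvenile 16L, and 23.9, 29.0, 21.1, 7.57 and 22.9 CPM in juvenile 8L birds. Adult 16L birds had 33.0, 15.2, 32.7, 27.4 and 26.4 CPM, against 19.1, 11.3, 23.1, 31.1 and 38.6 CPM in adult 8L birds. All 4 ranges overlapped, and the lowest value of each juvenile group came from a library under 200000 counts. The log2 fold change of 16L over 8L was 0.01 in adults (SE 0.36, edgeR adjusted p = 0.999) and -0.03 over both ages (SE 0.30, 95% interval -0.65 to 0.59, edgeR adjusted p = 1.00). That of juveniles over adults was -0.24 under 16L (SE 0.48, edgeR adjusted p = 0.976), -0.07 under 8L and -0.15 over both photoperiods (SE 0.30, interval -0.78 to 0.48, edgeR adjusted p = 0.888).

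**Figure D3:**
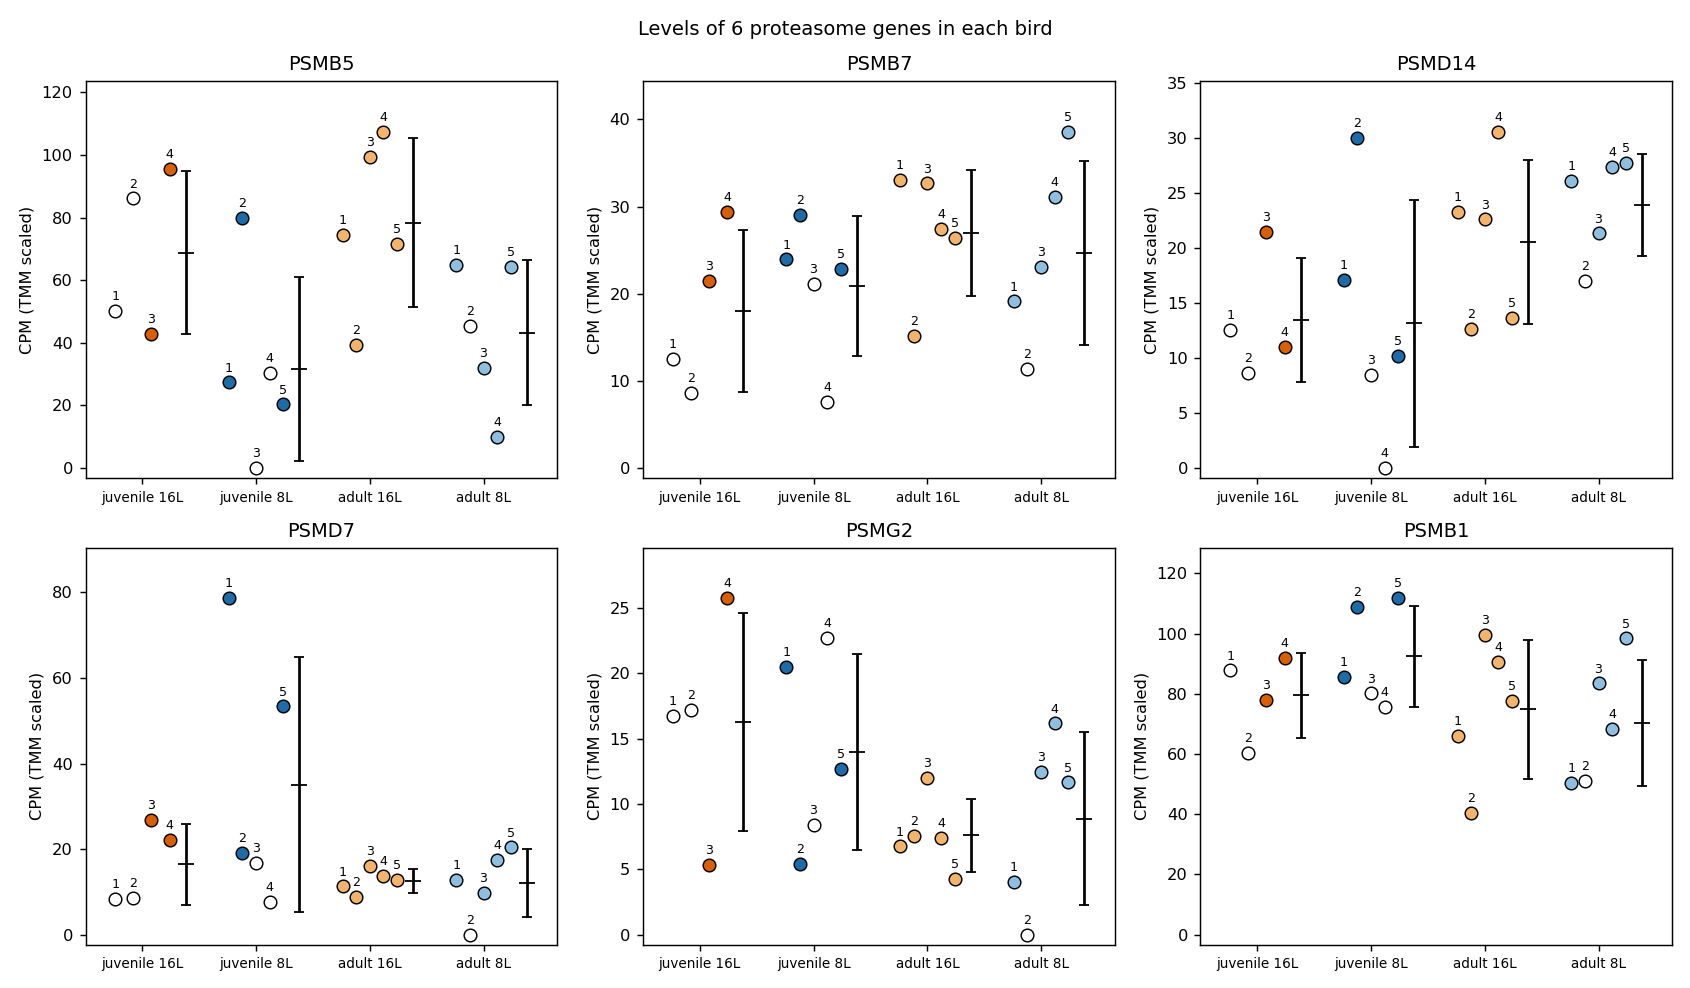
Levels (TMM-scaled CPM) of PSMB5, PSMB7, PSMD14, PSMD7, PSMG2 and PSMB1 in each bird by group. Points are birds with their replicate numbers, open where the library held under 200000 counts, and bars are mean and SD. PSMB5 runs higher under 16L than 8L at both ages with overlap, and juvenile 8L replicates 1 and 5 stand above all other birds in PSMD7.

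Of the non-catalytic beta subunits, PSMB1 came closest to separating juveniles from adults. Juvenile 8L birds had 85.5, 109, 80.1, 75.7 and 112 CPM, against 50.4, 51.0, 83.5, 68.4 and 98.4 CPM in adult 8L birds. The groups overlapped with scaling over all 19 birds, and did not when the 10 birds of the comparison were scaled alone, as was so in this direction for 0.901% of the genes tested there. The fold change of this pair was 0.55 on the log2 scale (SE 0.41, 95% interval -0.34 to 1.44, edgeR adjusted p = 0.788). Under 16L, PSMB1 had 87.8, 60.3, 77.9 and 91.9 CPM in juveniles, against 66.1, 40.5, 99.4, 90.6 and 77.6 CPM in adults. Over both photoperiods the log2 fold change of juveniles over adults was 0.46 (SE 0.25, interval -0.06 to 0.99, edgeR adjusted p = 0.461). PSMB2, PSMB3 and PSMB4, which complete the beta ring with others, had log2 fold changes of -0.21 to 0.11 with photoperiod over both ages. Their levels over the 19 birds were 17.7 to 69.9 CPM for PSMB2, 10.1 to 58.1 CPM for PSMB3 and 8.61 to 50.6 CPM for PSMB4.

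The 7 alpha subunits form the gated outer rings through which substrates enter. Their log2 fold changes over both ages ran from -0.28 (PSMA5) to 0.33 (PSMA4) with photoperiod, and over both photoperiods from -0.16 (PSMA5) to 0.34 (PSMA3) with age. PSMA4 was the second member by p in juveniles. It had 91.9, 86.1, 85.9 and 29.4 CPM in juvenile 16L birds, against 47.9, 79.9, 0, 15.1 and 60.9 CPM in juvenile 8L birds. In all, 3 of the 16L birds were above all of the 8L birds and replicate 4 was below 3 of them. Its log2 fold change between the juvenile groups was 0.98 (SE 0.85, 95% interval -0.89 to 2.86, edgeR adjusted p = 0.999), 1.28 without juvenile 8L replicates 1 and 5, and -0.055 without the libraries under 200000 counts. In adults PSMA4 had 73.6, 22.8, 86.0, 69.6 and 63.1 CPM under 16L, against 49.8, 22.7, 71.0, 94.5 and 90.3 CPM under 8L, a log2 fold change of -0.17. PSMA7 had 17.01 to 86.0 CPM over the 19 birds, PSMA2 23.9 to 74.6 CPM and PSMA3 8.61 to 63.5 CPM. PSMA1 had 11.3 to 48.5 CPM, PSMA6 5.67 to 41.5 CPM and PSMA5 0 to 20.4 CPM.

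**Figure D4:**
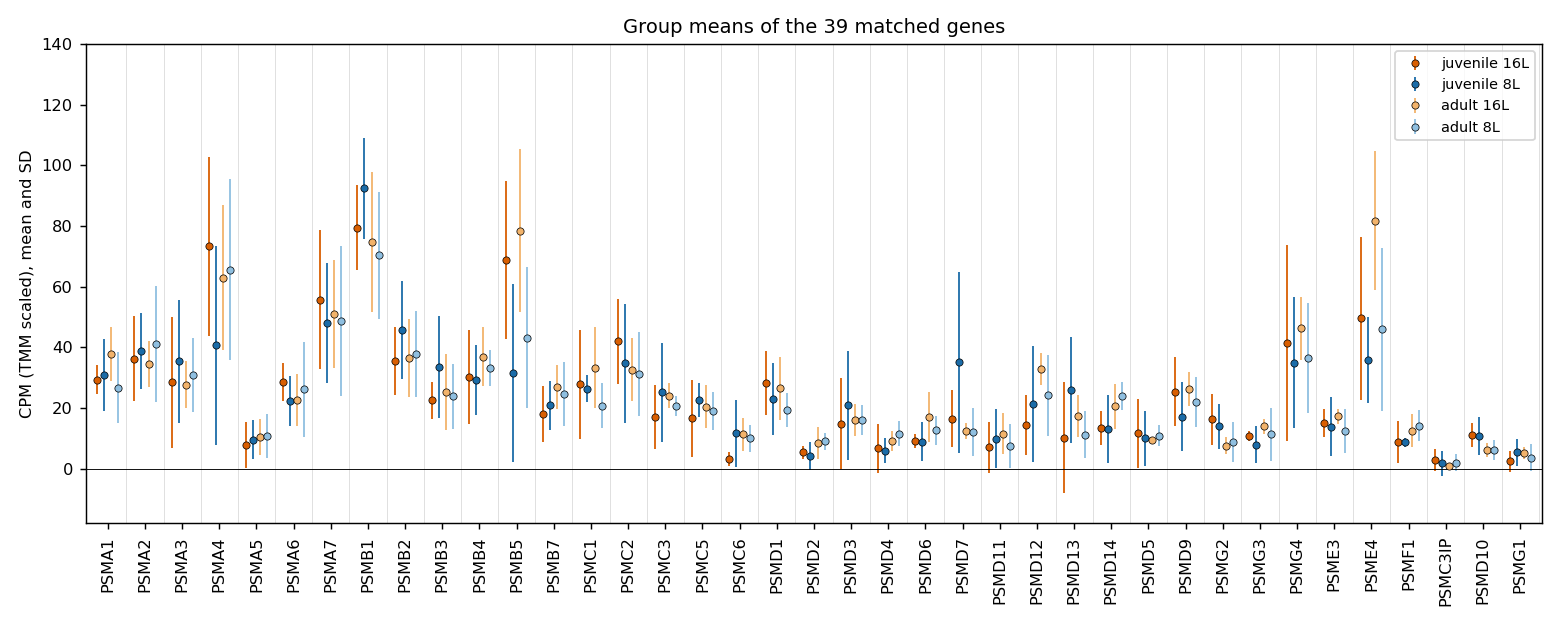
Mean level (TMM-scaled CPM, bars are SD) of each of the 39 genes in each group, with 4 juvenile 16L birds and 5 birds in each other group. Group means of a gene mostly lie within 1 SD of each other, and values are not scaled to length, so heights compare groups within a gene and not genes. A bar below 0 comes from the SD and holds no bird.

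The regulatory ATPases form the unfolding ring. PSMC1 had the largest photoperiod difference among them in adults, a log2 fold change of 0.54 (SE 0.37, 95% interval -0.24 to 1.32, edgeR adjusted p = 0.999), from a mean of 33.3 ± 13.4 CPM in adult 16L and 20.9 ± 7.48 CPM in adult 8L birds (SD, n = 5 each). PSMC2, PSMC3 and PSMC5 had log2 fold changes of -0.07 to 0.16 there. PSMC6 had the smallest p of the members for the difference between the photoperiod effects of juveniles and adults. It had 4.18, 0, 5.37 and 3.68 CPM in juvenile 16L birds, against 3.42, 12.7, 4.22, 7.57 and 30.5 CPM in juvenile 8L birds. PSMC6 had only 4 counts over the juvenile 16L birds and 29 over the juvenile 8L birds, and its 0 allows up to 25.8 CPM. In adults it had 10.5, 7.59, 17.05, 16.9 and 5.12 CPM under 16L, against 6.95, 5.67, 7.99, 14.9 and 14.6 CPM under 8L. Its levels overlapped between photoperiods at both ages. The difference of the effects, juvenile minus adult, was -1.67 on the log2 scale (SE 0.94, interval -3.61 to 0.28, edgeR adjusted p = 0.939), and -1.28 without juvenile 8L replicates 1 and 5. Over the 19 birds PSMC2 had 11.3 to 68.6 CPM, PSMC3 3.68 to 53.3 CPM and PSMC5 4.18 to 34.5 CPM.

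PSMD14 is the deubiquitinase that removes the ubiquitin chain as a substrate enters. It had 23.3, 12.6, 22.6, 30.6 and 13.6 CPM in adult 16L birds, against 26.1, 17.01, 21.3, 27.4 and 27.7 CPM in adult 8L birds. Juvenile 16L birds had 12.5, 8.61, 21.5 and 11.03 CPM, against 17.1, 29.9, 8.43, 0 and 10.2 CPM in juvenile 8L birds. Juveniles sat mostly below adults, and juvenile 16L replicate 3 and juvenile 8L replicates 1 and 2 lay within the adult range. The juvenile values rest on 15 counts over the 16L group and 44 over the 8L group. Adults had 180 under 16L and 132 under 8L. The log2 fold change of 16L over 8L was -0.32 in adults (SE 0.35, edgeR adjusted p = 0.999) and -0.18 over both ages (SE 0.35, edgeR adjusted p = 1.00). That of juveniles over adults was -0.27 under 16L (edgeR adjusted p = 0.971), -0.57 under 8L (SE 0.52, edgeR adjusted p = 0.832) and -0.46 over both photoperiods (SE 0.35, 95% interval -1.19 to 0.28, edgeR adjusted p = 0.689).

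PSMD7, the partner of PSMD14 in the lid, had the largest difference with age. Juvenile 8L birds had 78.6, 19.1, 16.9, 7.57 and 53.3 CPM, against 12.7, 0, 9.77, 17.4 and 20.4 CPM in adult 8L birds. Juvenile 16L birds had 8.36, 8.61, 26.9 and 22.1 CPM, against 11.3, 8.85, 16.1, 13.7 and 12.8 CPM in adult 16L birds. Juvenile 8L replicates 1 and 5 stood above every other bird, juvenile 16L replicates 3 and 4 lay just above the highest adult, and the other 5 juveniles had less than the highest adult. The log2 fold change of juveniles over adults was 1.62 under 8L (SE 0.66, 95% interval 0.19 to 3.06, edgeR adjusted p = 0.529) and 0.74 under 16L (SE 0.47, edgeR adjusted p = 0.722). Over both photoperiods it was 1.22 (SE 0.43, interval 0.33 to 2.11, edgeR adjusted p = 0.186). It passed the threshold with DESeq2 (1.23, adjusted p = 0.0314), and with edgeR without the libraries under 200000 counts (1.497, adjusted p = 0.0488, with 1.96% of all genes called) and on the most counted transcript of each gene (1.23, adjusted p = 0.0489, with 3.32% called). PSMD7 had 1 transcript, so this last setting changed the counts of other genes and not its own. The fit without libraries under 200000 counts kept juvenile 8L replicates 1 and 5. It dropped juvenile 16L replicates 1 and 2 and juvenile 8L replicates 3 and 4, all below the highest adult, and adult 8L replicate 2, at 0 CPM. Without juvenile 8L replicates 1 and 5 the log2 fold change over both photoperiods was 0.54 (edgeR adjusted p = 0.680), and under 8L alone 0.35.

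Juvenile 8L replicates 1 and 5, highest in PSMD7, also held the most bone markers. A part of bone or other cell types in the PSMD7 difference was not tested. The 12 markers of osteoblasts and osteocytes found of 13 summed to 14060 and 13740 CPM in juvenile 8L replicates 1 and 5, and to 128, 333 and 939 CPM in replicates 2, 3 and 4. They summed to 4271, 2231, 207 and 125 CPM in juvenile 16L birds, 38.2 to 56.3 CPM in adult 16L and 34.0 to 55.0 CPM in adult 8L birds. None of the 12 was at 0 in either juvenile group, while IBSP, SP7 and DMP1 were at 0 in every bird of both adult groups. The 13 cartilage markers summed to 5931 and 2445 CPM in juvenile 8L replicates 1 and 5. The 8 markers of dividing cells found summed to 103 to 338 CPM in juveniles and 10.7 to 136 CPM in adults. The 136 CPM was in adult 8L replicate 2, a library under 200000 counts, and the next highest adult had 31.0 CPM. Leukocyte markers, 8 found of 10, summed to 0 to 86.1 CPM in juvenile 16L and 25.3 to 144 CPM in juvenile 8L birds. They summed to 173 to 1210 CPM in adult 16L and 0 to 2205 CPM in adult 8L birds. Red blood cell markers, 6 found of 11, summed to 4239 and 9365 CPM in juvenile 8L replicates 1 and 5, 725 to 5754 CPM in the other juveniles and 414 to 1567 CPM in adults. Juvenile 16L replicates 1 and 2, with 4271 and 2231 CPM of bone markers, had low PSMD7 (8.36 and 8.61 CPM), from 2 counts and 1 count.

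**Figure D5:**
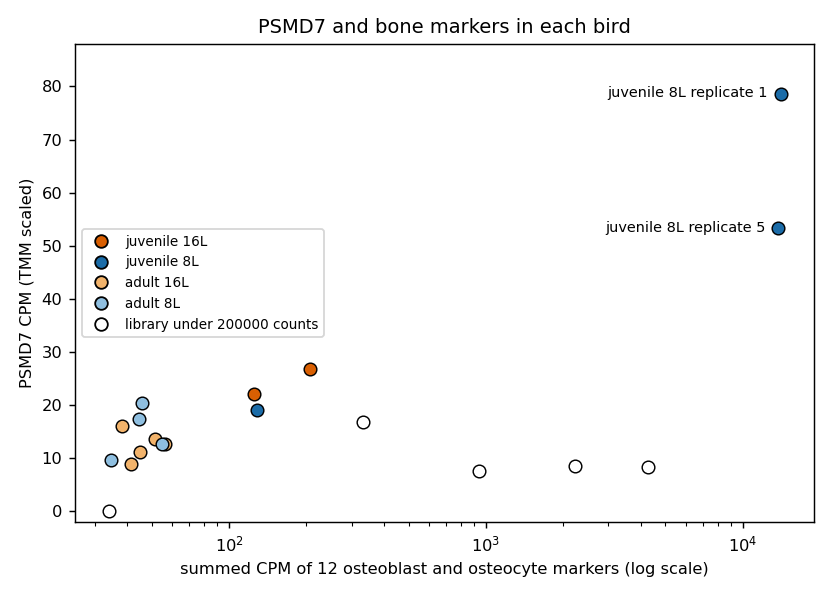
PSMD7 level (TMM-scaled CPM, y axis) against the summed CPM of 12 osteoblast and osteocyte markers (x axis, log scale) in the 19 birds, coloured by group, with libraries under 200000 counts open. Juvenile 8L replicates 1 and 5 hold both the most bone markers and the most PSMD7, and the other 17 birds lie between 0 and 26.9 CPM of PSMD7.

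No other lid or base subunit passed the threshold. PSMD12, a scaffold subunit of the lid, had 0, 17.2, 18.8 and 22.1 CPM in juvenile 16L birds, against 37.6, 30.3, 29.8, 27.4 and 39.2 CPM in adult 16L birds. These groups, with 15 counts over the juveniles and 270 over the adults, did not overlap. That was so in the same direction for 5.24% of the genes tested. On the most counted transcript of PSMD12 the groups did overlap, at 0 to 33.3 CPM in juveniles and 31.8 to 47.7 CPM in adults. Between these 16L groups the log2 fold change of the summed counts was -0.90 (SE 0.61, 95% interval -2.22 to 0.42, edgeR adjusted p = 0.758). Under 8L PSMD12 had 17.1, 26.3, 12.6, 0 and 50.8 CPM in juveniles, against 23.7, 5.67, 17.8, 37.3 and 36.4 CPM in adults, with wide overlap. PSMD13, another lid subunit, had 0, 0, 37.6 and 3.68 CPM in juvenile 16L birds, against 0, 18.2, 33.7, 45.4 and 33.0 CPM in juvenile 8L birds. In adults it had 11.3, 29.1, 18.01, 14.8 and 13.6 CPM under 16L, against 6.95, 0, 13.3, 16.2 and 19.7 CPM under 8L. The zeros of PSMD13 allow up to 25.8 CPM in the shallowest of these libraries. Its log2 fold change of juveniles over adults under 8L was 1.18 (SE 0.74, edgeR adjusted p = 0.726), or 1.47 without juvenile 8L replicates 1 and 5, and the difference of its photoperiod effects, juvenile minus adult, was -1.46 (SE 1.18, edgeR adjusted p = 1.00). Without the libraries under 200000 counts that difference was 0.12, and in fits without 1 bird it was -4.27 to -1.05. In the fit without juvenile 16L replicate 3, PSMD13 was the 1 member of 37 at an unadjusted edgeR p under 0.05. That was so for 7.68% of 8337 genes, and 0 members were called. The 13 regulatory genes tested for the difference of photoperiod effects were counted in the same birds and are not independent. Of them, 11 lay below 0, as did 4027 of all 7165 genes. Their median difference was -0.51, beside -0.14 over all genes. Of the 34 members 0 were called for it and 0 had an unadjusted p under 0.05 (0% and 5.74% of 7165 genes), and DESeq2 and limma-voom gave 0 at the unadjusted threshold as well. The interval lay within 1 log2 unit for 0 of the 34 (0.0279% of all genes).

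The remaining regulatory subunits were described by their ranges over the 19 birds. PSMD1, a large base scaffold, had 7.57 to 43.1 CPM and its counterpart PSMD2 0 to 15.02 CPM. PSMD4, a ubiquitin receptor, had 0 to 17.01 CPM. Of the lid subunits, PSMD3 had 0 to 51.3 CPM, PSMD6 0 to 29.5 CPM and PSMD11 0 to 21.8 CPM. None was called in any comparison. PSMD6 had the next lowest log2 fold change after PSMD12 for juvenile 16L over adult 16L birds, -0.64 (SE 0.57, 95% interval -1.87 to 0.59, edgeR adjusted p = 0.870).

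PSMG2, which pairs with PSMG1 to start the alpha ring, had the second largest log2 fold change with age. It had 16.7, 17.2, 5.37 and 25.7 CPM in juvenile 16L birds, against 6.76, 7.59, 12.01, 7.38 and 4.26 CPM in adult 16L birds. Of the juveniles, 3 stood above all of these adults and replicate 3 was within their range. The juvenile 16L values rest on 15 counts over the group, against 77 in adult 16L birds. Between these groups PSMG2 gave a log2 fold change of 1.29 (SE 0.56, 95% interval 0.08 to 2.49, edgeR adjusted p = 0.448). Without the juveniles listed as females it was 0.65, from juvenile 16L replicates 1 and 3. HINTW had 0 counts in the removed replicate 2 and 120 in the kept replicate 3, so this fit does not separate the sexes. Under 8L PSMG2 had 20.5, 5.45, 8.43, 22.7 and 12.7 CPM in juveniles, against 4.05, 0, 12.4, 16.2 and 11.7 CPM in adults. Over both photoperiods the log2 fold change was 0.95 (SE 0.46, interval 0.003 to 1.90, edgeR adjusted p = 0.3796). PSMG1 had 0, 0, 2.69 and 7.36 CPM in juvenile 16L, 10.3, 9.98, 4.22, 0 and 2.54 CPM in juvenile 8L, 6.01, 2.53, 6.003, 7.38 and 4.26 CPM in adult 16L and 1.16, 0, 0.888, 9.95 and 6.56 CPM in adult 8L birds. It passed the filter on low counts in no comparison, as was so for PSMD10 and PSMC3IP. The other core chaperones had 0 to 21.1 CPM (PSMG3) and 6.84 to 85.9 CPM (PSMG4) over the 19 birds. The chaperones of the regulatory particle had 0 to 26.9 CPM (PSMD5), 0 to 41.8 CPM (PSMD9) and 2.49 to 17.8 CPM (PSMD10), and none of those tested was called.

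PSME4, a single-chain activator known in mammals as PA200, had the smallest p but one in adults with photoperiod. It had 58.6, 116, 71.6, 92.7 and 69.9 CPM in adult 16L birds, against 78.2, 62.4, 52.4, 13.7 and 23.3 CPM in adult 8L birds. Of the 8L birds, 3 lay below all of the 16L birds and 2 were within their range. Between the adult groups the log2 fold change was 0.77 (SE 0.45, 95% interval -0.18 to 1.73, edgeR adjusted p = 0.999). In juveniles PSME4 had 71.0, 51.7, 64.4 and 11.03 CPM under 16L, against 47.9, 19.97, 50.6, 22.7 and 38.1 CPM under 8L, with the lowest bird of both groups under 16L. Over both ages the log2 fold change was 0.63 (edgeR adjusted p = 1.00). PSME3, the nuclear activator, had 4.22 to 30.3 CPM and PSMF1, the inhibitor, 3.68 to 22.6 CPM over the 19 birds. PSMC3IP had 0 to 9.08 CPM.

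Other genes of the pathway were taken from a list of 44 ubiquitin and proteasome genes outside the set, of which 36 were found. Between 11 and 30 of them were tested in a comparison, and 0 were called in any of the 7 by edgeR or limma-voom, while DESeq2 called 1, NEDD8, between juvenile 8L and adult 8L birds, where it called 2.1% of all genes. At an unadjusted p under 0.05 there were 0 to 2 of them in a comparison by edgeR (1.7% to 13.1% of all genes), 0 to 3 by DESeq2 (3.83% to 18.2%) and 0 to 2 by limma-voom (3.74% to 18.4%). UBB, which encodes polyubiquitin, had 587, 487, 602, 425 and 551 CPM in adult 16L birds, against 298, 295, 340, 321 and 396 CPM in adult 8L birds. The adult groups did not overlap, as was so in this direction for 0.575% of all genes, and its log2 fold change was 0.60 (SE 0.23, 95% interval 0.11 to 1.09, edgeR adjusted p = 0.999). Between juvenile 16L and juvenile 8L birds it was -0.004 (SE 0.36, interval -0.80 to 0.79, edgeR adjusted p = 1.00), and the difference of the effects, juvenile minus adult, was -0.64 (SE 0.44, interval -1.55 to 0.26, edgeR adjusted p = 0.992). COPS5, the other list gene at an unadjusted p under 0.05 between the adult groups by edgeR, went the other way. Its log2 fold change there was -0.92 (SE 0.42, 95% interval -1.82 to -0.02, edgeR adjusted p = 0.999). NEDD8, a ubiquitin-like modifier that activates cullin ligases, had 403, 925, 371, 500 and 424 CPM in juvenile 8L birds, against 262, 125, 229, 80.8 and 312 CPM in adult 8L birds. These groups did not overlap either, as was so in this direction for 0.901% of all genes. Its log2 fold change was 1.54 (SE 0.45, interval 0.57 to 2.50, edgeR adjusted p = 0.382), with a DESeq2 adjusted p of 0.00778. NEDD8 was counted on 11 transcripts, 541 counts on the most counted and 5791 summed, and on the most counted one the log2 fold change was 1.49 with an edgeR adjusted p of 0.121. Without juvenile 8L replicates 1 and 5, the summed NEDD8 gave 1.67. Between juvenile 16L and adult 16L birds NEDD8 gave -0.21 (SE 0.42, interval -1.12 to 0.70, edgeR adjusted p = 0.976). Its interaction of age and photoperiod was -1.76 (SE 0.62, interval -3.05 to -0.46, edgeR adjusted p = 0.781). For the interaction, 1 list gene lay higher and 1 lower at an unadjusted edgeR p under 0.05 (5.74% of all genes). UBA6 went opposite to NEDD8, at 1.79 to 3.49 in fits without 1 bird. With age over both photoperiods, 1 list gene was at that threshold, and it was lower in juveniles. UBE3C gave -0.74 to -0.53 there in fits without 1 bird.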

How the data were processed

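Pituitary RNA of 19 quail, 1 library a bird, was sequenced by the authors with the Oxford Nanopore PCR-cDNA barcoding kit on a GridION. Per the paper's methods they called bases with guppy, trimmed with Porechop and Filtlong, aligned reads to a quail genome and quantified with Salmon. The submitters' processing notes name minimap2 beside Salmon. The authors deposited estimated counts per transcript with no normalization, and 99.3% to 99.6% of the values of a library were whole numbers (exactly, with no tolerance). The table held no columns of other samples. None of its 63260 transcript accessions was in the quail annotation at hand, so no position, length, promoter or protein of a counted transcript is given, although all 39 symbols are in it.

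Counts were summed per gene symbol and rounded. Each comparison was fitted on its own groups with edgeR 4.0.16 (R 4.3.3, filterByExpr with a minimum count of 10, TMM, quasi-likelihood test), and p-values were adjusted by Benjamini-Hochberg over all genes tested. Standard errors were taken as the log2 fold change over the root of F, which is poorly determined near 0, and a Poisson bound raised the p of some genes above what their interval implies (PSMD14, PSMC6 and PSMB7 in some comparisons). The p-values set a difference of groups against the spread between birds of a group.

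Members and gene lists were chosen with earlier results of these data known. Full statistics were given for members at an adjusted p under 0.05, for up to 4 with the smallest p under 0.01 or otherwise the 2 smallest, for PSMB5, PSMB7 and PSMD14, and for the members with the most and fewest counts. PSMG2 over both photoperiods, PSMC1, PSMD12, PSMD6 and the list genes outside the set were named after their values were seen.

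Alternatives were DESeq2 1.42.0, limma-voom (limma 3.58.1), RLE and upper quartile scaling, 2 filters, the newer quasi-likelihood method, the replicate number as a block, the 2 blocks of birds in the study's list as a term, and fits without each bird, without libraries under 200000 counts, without juveniles listed as females, and without juvenile 8L replicates 1 and 5. Use of the most counted transcript, and sums without the shallow libraries, were added after the data were seen.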

Additional observations from a re-analysis of the deposited data

Results flagged for a closer look

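Of 64 groups of birds examined for a value far from the others, 2 held one, and chance alone gives about 1 in 20. PSMA4 was at 29.4 CPM in juvenile 16L replicate 4, far below the 85.9 to 91.9 CPM of the other 3 birds of its group. PSMD13 was at 37.6 CPM in juvenile 16L replicate 3, far above the 0 to 3.68 CPM of the other 3. No member had a photoperiod effect that differed between the ages by test.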

How the results depend on the processing

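The count of members called was 0 in all 7 comparisons and stayed at 0 in 91 of 94 fits with another setting and in 95 fits without 1 bird. It was 1, PSMD7, for juveniles over adults with DESeq2, without libraries under 200000 counts and on most counted transcripts. Without 1 bird its log2 fold change there was 0.89 to 1.33. The replicate numbers paired no birds (correlations of same-numbered birds from -0.13 to 0.12), and with the replicate number as a block 0 members were called and PSMD7 was at 1.28 (edgeR adjusted p = 0.220). Of the particle sums, 2 moved by more than the replicate SD: the regulatory difference of adult 16L and adult 8L was -0.12 with plain library totals and 0.26 with TMM, and that of juvenile 16L and adult 16L was -0.05 with RLE factors.

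Of the log2 fold changes that changed sign, none was past the threshold, and the cause was not tested. PSMB7 between adult 16L and adult 8L was -0.0028 with DESeq2, -0.0052 with limma-voom and -0.019 with upper quartile factors. It was -0.036 with 10 counts in every library of a group and -0.056 without libraries under 200000 counts. With the most counted transcript of each gene it was -0.0019, although PSMB7 itself had 1 transcript, and without 1 bird -0.10 to 0.22. Between juvenile 8L and adult 8L it was 0.020 with limma-voom, 0.016 with the block of the bird list and -0.21 to 0.13 without 1 bird, and for 16L over 8L at both ages -0.13 to 0.068 without 1 bird. PSMB5 between juvenile 16L and adult 16L was -0.15 without a filter, -0.55 without listed females, -0.095 on its most counted transcript and -0.18 to 0.27 without 1 bird. For juveniles over adults it was 0.077 with upper quartile factors, and its interaction was -0.15 on the most counted transcript. Without libraries under 200000 counts, PSMA4 between juvenile groups was -0.055, PSMB7 between juvenile 16L and adult 16L 0.10, PSMB5 between juvenile 8L and adult 8L 0.063 and for juveniles over adults 0.025, and the interactions of PSMB5, PSMB7 and PSMD13 were -0.039, 0.18 and 0.12. PSMD14 for 16L over 8L was 0.014 without listed females, and its interaction -0.022 to 0.79 without 1 bird.

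Depth was lowest in juveniles, where 1 count stood for up to 8.61 CPM and 7 members passed the filter between the juvenile groups.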
